A study of Mus musculus with 10 samples.

Results

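The genes described here are 10 markers of disease-associated microglia (DAM) whose products are secreted, sit in membranes or make a secreted molecule: Cst7, Csf1, Clec7a, Gpnmb, Spp1, Igf1, Ank, Ch25h, Lyz2 and Timp2. They were chosen by symbol from the 53697 genes in the deposited values, and each symbol matched 1 gene. Their RNA was compared between microglia of Bhlhe40/41 double knockout (DKO) mice and of wild-type (WT) mice, with 5 libraries per genotype. DKO mice lacked Bhlhe40 and Bhlhe41 in all cells. The paper's results call the WT mice littermates of the DKO mice. Its methods give them as C57BL/6J or Rosa26Stop-YFP, a line with a reporter behind a stop cassette. The labels do not say which WT library came from which line, nor which libraries came from littermates. All mice were female and untreated and at least 2 and 6 months of age, with no age given for any one library, and the lines were kept on a C57BL/6 background. Viable brain cells positive for CD45.2 and CD11b and negative for Ly6C, Ly6G, MHCII and CD38 were sorted. The labels call the libraries biological replicates without saying whether each is a single mouse, and p-values speak only of the spread from library to library.

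Microglia, the resident macrophages of the brain, leave their resting program near amyloid plaques, dying cells and damaged myelin and take up the DAM program, which in mice depends in large part on the lipid receptor Trem2. In this program purinergic and other homeostatic receptors go down, and genes of lysosomes, lipid handling and secreted growth factors go up. The secreted and surface members are the part of the program that other cells can meet, as ligands (Csf1, Spp1, Igf1), as enzymes and enzyme inhibitors (Lyz2, Cst7, Timp2, and Ch25h through its product), and as membrane proteins (Clec7a, Gpnmb, Ank). Bhlhe40 and Bhlhe41 are closely related basic helix-loop-helix proteins that bind E-boxes and mostly repress transcription.

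Of the 10 markers, Ank and Clec7a were higher and Spp1 was lower in DKO microglia, and no change was called in the other 7. Gpnmb was too scarce to be tested, which left 9 markers among the 13916 genes tested with edgeR's quasi-likelihood test (Benjamini-Hochberg adjusted p under 0.05). Among all genes tested, 6.19% were called, 4.34% as higher and 1.85% as lower in DKO microglia. Of the 9 markers 7 had a positive log2 fold change, as did 48.7% of all genes, and their median was 0.35, against -0.0095 over all genes. The 3 markers that were called were also the only ones of the 9 whose libraries did not overlap between genotypes in CPM, the estimated count relative to the scaled total of its library, a property of 7.62% of all genes tested. A 4th marker, Cst7, was under 0.05 only before adjustment. Levels in a bulk library cannot tell fewer cells that express a gene from less RNA per cell. That holds for each marker here.

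**Figure D1:**
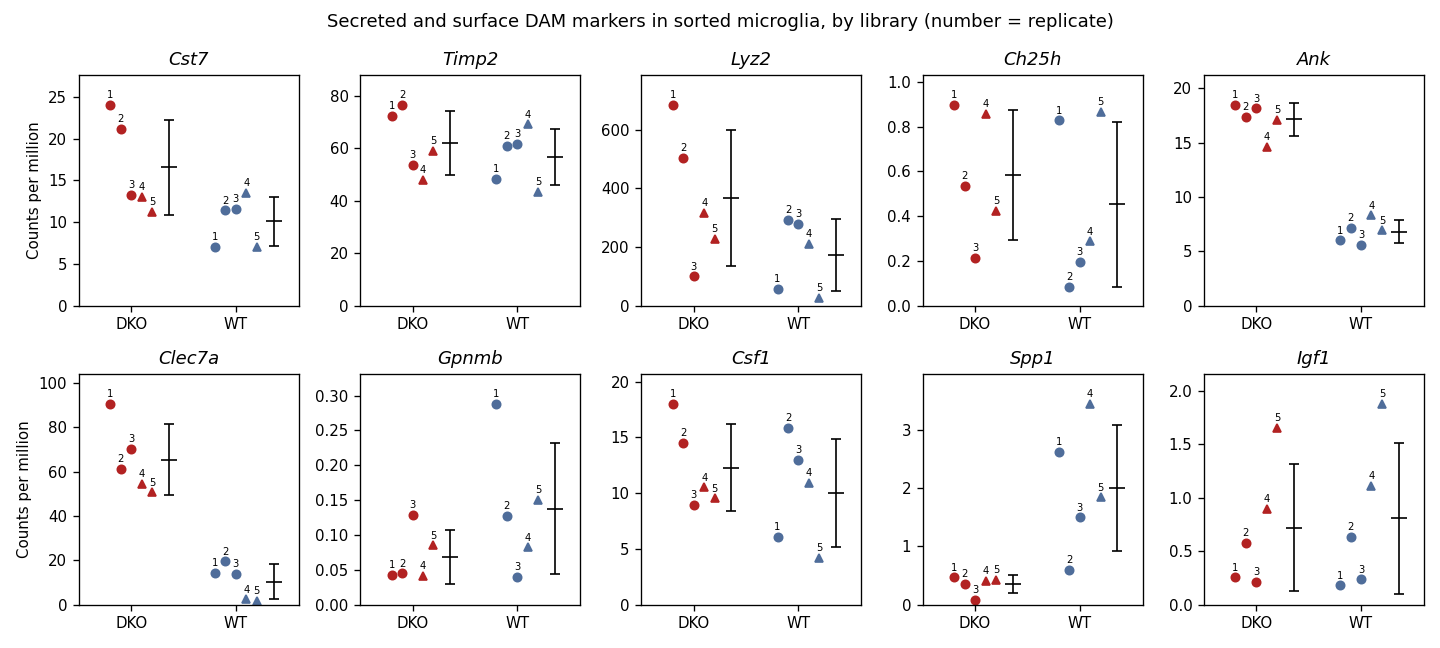
CPM of each marker in each library, 1 panel per gene with its own vertical axis from 0. DKO libraries (red) stand left of WT libraries (blue), digits give the replicate number, circles are numbers 1 to 3, triangles are numbers 4 and 5, and bars are the mean and SD of 5 libraries. Only the panels of Ank, Clec7a and Spp1 show genotypes that do not overlap.

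Total estimated counts were 22483044 to 26109107 in DKO libraries and 23381908 to 25870859 in WT libraries, so that 1 CPM stood for 22.4 to 27.8 counts. Bhlhe40 was read at 1 to 8 counts in DKO and 4 to 28 counts in WT libraries, and Bhlhe41 at 40.6 to 60.5 CPM in DKO and 31.0 to 47.0 CPM in WT libraries. Counts over a whole gene can include a part that the knockout allele keeps, so these levels do not check the labels, whereas the transcript length assigned to Bhlhe41 parted the genotypes (1851 to 2719 bases in DKO and 5878 to 6133 bases in WT libraries). DKO 3, WT 1 and WT 5 held more mitochondrial RNA (1.58%, 1.75% and 1.54% of counts) than the other 7 libraries (0.986% to 1.16%). The summed CPM of 8 microglia markers was 64931 to 80012 in DKO and 70598 to 79073 in WT libraries. Monocyte markers summed to 27.7 to 37.1 CPM in DKO and 16.0 to 20.2 CPM in WT libraries, 2 of 5 tested being higher (Cd44 and Ly6a), and Plac8, which did not pass, averaged 0.228 CPM in DKO and 0.812 CPM in WT libraries (log2 fold change -1.81, edgeR adjusted p = 0.116, with DESeq2 calling 1 monocyte marker lower). Of the others, Ly6c2 was at 0 to 0.170 CPM in DKO and 0 to 0.0424 CPM in WT libraries and Chil3 was at 0 in every library. Macrophage markers of brain borders summed to 139 to 248 CPM in DKO and 178 to 312 CPM in WT libraries, of which Stab1 held most, with Cd163 and Lyve1 at 0 in every library and Pf4 called higher. Neutrophil markers summed to 0 to 1.43 CPM in DKO and 0.0424 to 0.602 CPM in WT libraries, and 6 of their 9 genes, S100a8 and S100a9 among them, were at 0 in every library. Astrocyte markers summed to 158 to 210 CPM in DKO and 243 to 397 CPM in WT libraries. Endothelial and mural markers summed to 11.7 to 18.8 CPM in DKO and 41.5 to 64.3 CPM in WT libraries. Slc1a3 and Pecam1 were lower (log2 fold change -0.83 and -3.12), though 3 of 5 and 3 of 4 tested genes were positive. B cell markers summed to 526 to 886 CPM in DKO and 418 to 677 CPM in WT libraries. Part of the monocyte sum thus moved with genotype, as Ank and Clec7a did. The astrocyte and endothelial sums were lower in DKO, as Spp1 was. The part of these sums in any change was not tested.

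Ank encodes a multipass membrane protein through which pyrophosphate, ATP and citrate leave the cell. It was the marker with the smallest p. It stood at 18.5, 17.4, 18.1, 14.6 and 17.1 CPM in DKO 1 to DKO 5 and at 6.02, 7.17, 5.57, 8.31 and 6.92 CPM in WT 1 to WT 5. The lowest DKO library (14.6 CPM) was well above the highest WT library (8.31 CPM), and the libraries of one genotype lay close together. Ank averaged 17.1 ± 1.52 CPM in DKO and 6.80 ± 1.07 CPM in WT microglia (SD, n = 5 each), and its log2 fold change was 1.33 (standard error 0.13, 95% interval 1.04 to 1.63, edgeR adjusted p = 0.000177). By p, Ank ranked 46 among the 13916 genes. It rests on 358 to 432 counts per DKO and 141 to 202 counts per WT library. Within numbers 4 and 5, with 2 libraries per genotype, the log2 fold change was 1.05 and the call was lost (edgeR adjusted p = 0.112).

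The gene (ENSMUSG00000022265.7) sits on the plus strand of GRCm38 chromosome 15 (27466677 to 27594909). GENCODE M21 gives it a coding transcript of 3498 bases in 12 exons and a shorter one of 1911 bases in 5 exons that retains an intron and is not coding. The deposited length of a gene is the mean of its transcript lengths weighted by their estimated abundance, so a longer length means a larger estimated share of the coding transcript. For Ank it was 2551, 2635, 2655, 2534 and 2535 bases in DKO 1 to DKO 5 and 2461, 2487, 2363, 2551 and 2254 bases in WT 1 to WT 5. If only these 2 transcripts contributed, the coding one made up 39.3% to 46.9% of Ank transcripts in DKO and 21.6% to 40.4% in WT libraries. The ranges overlapped through WT 4, the WT library that also had the highest Ank level. The log2 ratio of lengths was 0.09 (standard error 0.03), which did not pass over the 10588 genes whose length varied (limma adjusted p = 0.585, two-sided exact permutation p = 0.0317 for Ank by itself). By the same limma test 0.0283% of genes were called, none of them a marker, and at an unadjusted p under 0.05 Ank was the only one of the 6 markers with a varying length, against 7.38% of all genes. Genes that overlap Ank could share reads with it because the kit does not mark strand, and the most abundant of these, Otulin on the opposite strand, averaged 3.15 CPM in DKO and 2.96 CPM in WT microglia.

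**Figure D2:**
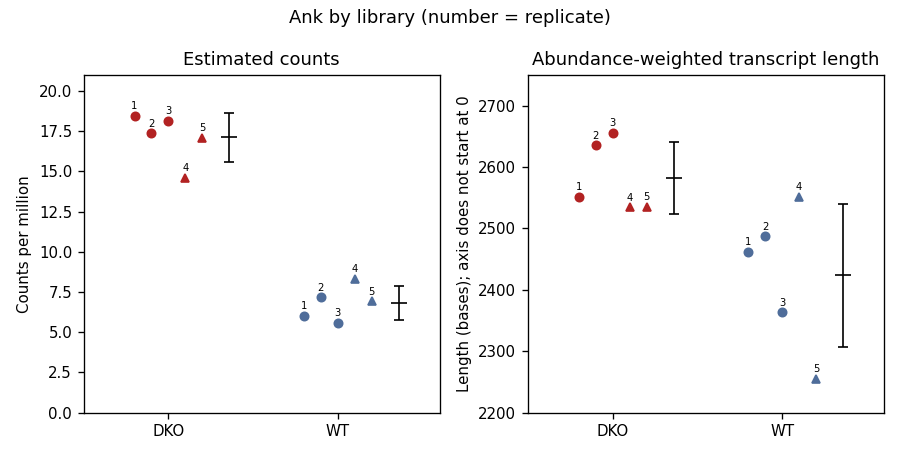
Ank level in CPM (left, axis from 0) and its abundance-weighted transcript length in bases (right, axis not from 0) in DKO (red) and WT (blue) libraries, with replicate numbers and the mean and SD of 5 libraries. Levels do not overlap (14.6 to 18.5 CPM in DKO and 5.57 to 8.31 CPM in WT libraries), while the lengths overlap through WT 4 (2551 bases).

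Clec7a encodes dectin-1, a C-type lectin that binds fungal beta-glucans and signals through Syk. It stood at 90.7, 61.3, 70.3, 54.5 and 50.7 CPM in DKO 1 to DKO 5 and at 14.4, 19.5, 13.8, 2.30 and 1.66 CPM in WT 1 to WT 5. Every DKO library was above every WT library, but WT libraries fell into a higher set, numbers 1 to 3, and a lower set, numbers 4 and 5, which had 44 to 56 counts each. Clec7a averaged 65.5 ± 16.0 CPM in DKO and 10.3 ± 7.93 CPM in WT microglia (SD, n = 5 each), and its log2 fold change was 2.67 (standard error 0.58, 95% interval 1.39 to 3.94, edgeR adjusted p = 0.0223). Within numbers 1 to 3 it averaged 74.1 CPM in DKO and 15.9 CPM in WT libraries (log2 fold change 2.22, edgeR adjusted p = 0.00758). Within numbers 4 and 5 it averaged 52.6 CPM in DKO and 1.98 CPM in WT libraries (log2 fold change 4.73, edgeR adjusted p = 0.0243), and whether the change differed between the sets was not tested. The call was lost without DKO 1 (edgeR adjusted p = 0.0594), without DKO 2 (0.0507) and without DKO 3, WT 1 and WT 5 together (0.0620), with log2 fold changes of 2.52, 2.69 and 2.44.

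Clec7a (ENSMUSG00000079293.11) sits on the minus strand of GRCm38 chromosome 6 (129461591 to 129472779), on the same chromosome as both deleted genes, 20.8 Mb beyond Bhlhe40 and 16.4 Mb before Bhlhe41. GENCODE M21 lists the gene as a polymorphic pseudogene, with 4 transcripts. Of these, Clec7a-201 and Clec7a-202 are typed as coding, Clec7a-203 as retaining an intron and Clec7a-204 as a polymorphic pseudogene. In the interval between the deleted genes 24 of 230 genes tested were called (10.4%, 18 higher and 6 lower in DKO). Of the other 13686 genes 6.12% were called, and of the 692 genes tested on all of chromosome 6, 62 (8.96%). Of the 8 other genes tested that start within 500 kb of Clec7a, 2 were called, in opposite directions. Clec1a, a related C-type lectin that starts 36.8 kb from it, averaged 8.41 ± 4.38 CPM in DKO and 0.931 ± 0.958 CPM in WT microglia (SD, n = 5 each; log2 fold change 3.17, edgeR adjusted p = 0.0319). Klrd1, the natural killer receptor CD94, averaged 1.41 ± 0.614 CPM in DKO and 5.34 ± 2.49 CPM in WT microglia (SD, n = 5 each; log2 fold change -1.92, edgeR adjusted p = 0.0141). Olr1 and Clec1b, lectin-like receptor genes that start 23.7 kb and 64.3 kb from Clec7a, had log2 fold changes of 1.36 and 1.22 that did not pass (edgeR adjusted p = 0.0600 and 0.192). Whether the position of Clec7a near the deleted genes has a part in its change was not tested.

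**Figure D3:**
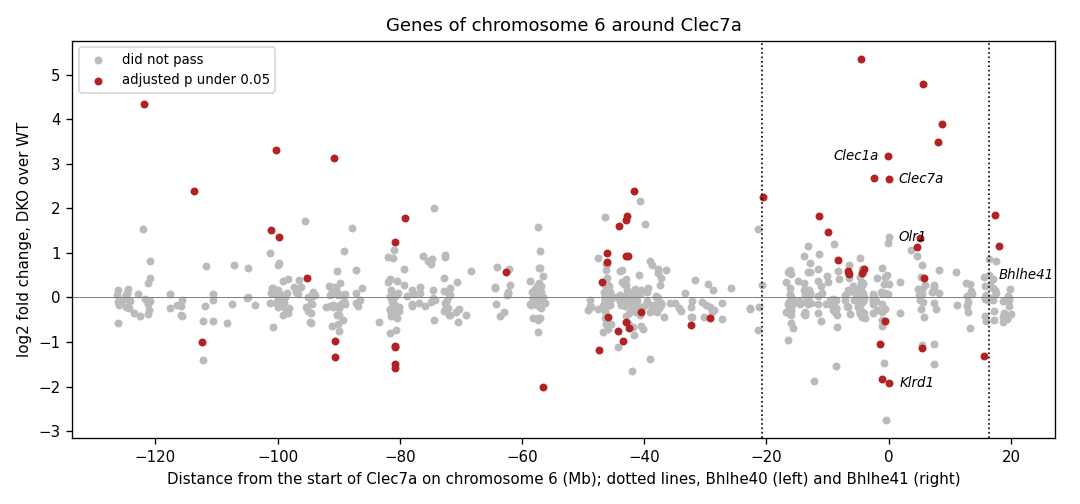
Log2 fold change (DKO over WT, edgeR) of each gene tested on chromosome 6 against the distance of its start from that of Clec7a in Mb. Red points passed an adjusted p of 0.05, grey points did not, and dotted lines mark Bhlhe40 and Bhlhe41, between which 24 of 230 genes passed, Clec7a (2.67) and its neighbours Clec1a (3.17) and Klrd1 (-1.92) among them.

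Gpnmb encodes a transmembrane glycoprotein of lysosomes and the cell surface whose outer part can be shed. It was hardly read in either genotype. Counts were 1, 1, 3, 1 and 2 in DKO 1 to DKO 5 and 8, 3, 1, 2 and 4 in WT 1 to WT 5. The genotypes overlapped, and at this depth no difference was detectable (0.0684 ± 0.0384 CPM in DKO and 0.138 ± 0.0944 CPM in WT microglia, SD, n = 5 each; two-sided exact permutation p = 0.198). Per kilobase of effective length it was the lowest of the 10 markers in both genotypes. Gpnmb (ENSMUSG00000029816.10) is on chromosome 6 from 49036546 to 49070929, outside the interval between the deleted genes.

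Spp1, the osteopontin gene, encodes a secreted phosphoprotein that binds integrins and CD44. It stood at 0.470, 0.357, 0.0858, 0.408 and 0.425 CPM in DKO 1 to DKO 5 and at 2.63, 0.594, 1.5, 3.45 and 1.84 CPM in WT 1 to WT 5. It was thus scarce in both genotypes, at 2 to 11 counts per DKO and 14 to 84 counts per WT library, and the highest DKO library lay just below the lowest WT library, WT 2. Spp1 averaged 0.349 ± 0.153 CPM in DKO and 2.00 ± 1.09 CPM in WT microglia (SD, n = 5 each), and its log2 fold change was -2.50 (standard error 0.49, 95% interval -3.58 to -1.43, edgeR adjusted p = 0.0136). The call was lost within numbers 1 to 3 (log2 fold change -2.37, edgeR adjusted p = 0.187), within numbers 4 and 5 (-2.65, 0.10), without WT 1 and WT 5 (-2.39, 0.0519), and without DKO 3 in addition (-2.14, 0.0769). Among the 3 called markers Spp1 was the one that moved against the direction it takes in DAM. Spp1 (ENSMUSG00000029304.14) sits on the plus strand of GRCm38 chromosome 5 (104435118 to 104441050).

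The bases before the transcription start are shown for these 3 markers because they are the ones called and the deleted proteins bind E-boxes. The windows are 250 bases that end at the base before the start, from RefSeq on GRCm38.p6, printed along the strand of the gene. They lie at chr15:27466427-27466676 (plus strand) for Ank, chr6:129472780-129473029 (minus strand) for Clec7a and chr5:104434861-104435110 (plus strand) for Spp1. Capitals mark the letters GAGGAAGT, the form in which the macrophage factor PU.1 often binds.
Ank: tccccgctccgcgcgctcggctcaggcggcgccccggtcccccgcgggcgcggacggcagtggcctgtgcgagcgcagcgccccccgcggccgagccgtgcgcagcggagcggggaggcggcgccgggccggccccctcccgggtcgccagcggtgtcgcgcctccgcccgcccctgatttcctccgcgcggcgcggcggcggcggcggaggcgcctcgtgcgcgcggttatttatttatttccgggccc
Clec7a: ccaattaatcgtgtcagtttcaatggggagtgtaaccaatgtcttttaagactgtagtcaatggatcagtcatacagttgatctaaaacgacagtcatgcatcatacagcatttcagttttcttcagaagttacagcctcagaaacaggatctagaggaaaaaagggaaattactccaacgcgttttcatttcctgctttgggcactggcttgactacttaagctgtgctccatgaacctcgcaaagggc
Spp1: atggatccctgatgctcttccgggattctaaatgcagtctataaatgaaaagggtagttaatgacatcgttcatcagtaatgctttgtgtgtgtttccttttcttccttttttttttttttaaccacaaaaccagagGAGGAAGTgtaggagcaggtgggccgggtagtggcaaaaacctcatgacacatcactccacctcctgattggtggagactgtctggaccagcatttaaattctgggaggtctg
These windows held 81.2%, 42% and 43.6% G and C in Ank, Clec7a and Spp1. The letters GAGGAAGT occurred in 1 of the 10 markers, Spp1, on the printed strand with their first base 113 bases before the start, and in 2.44% of all 32851 promoters in RefSeq on either strand. Of E-box forms, the letters CACGTG (6.02% of all promoters), the related CATGTG (12.3%) and a palindrome of 10 bases around CACGTG (0.240%) were searched. They occurred in none of the 10 windows on either strand, and other E-box forms were not searched. For Igf1 and Timp2 the RefSeq start lay 2846 and 329 bases from the outer start of the gene in GENCODE M21, and within 49 bases for the other 8. A match is only a description of letters, and the lack of one says only that they are not in this window.

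Csf1 encodes macrophage colony-stimulating factor, the ligand on which microglia depend through Csf1r. It stood at 18.0, 14.5, 8.92, 10.5 and 9.52 CPM in DKO 1 to DKO 5 and at 6.05, 15.9, 13, 10.9 and 4.18 CPM in WT 1 to WT 5. The genotypes overlapped almost wholly, with the 2 lowest values in WT 1 and WT 5. Csf1 averaged 12.3 ± 3.87 CPM in DKO and 10 ± 4.84 CPM in WT microglia (SD, n = 5 each; log2 fold change 0.30, 95% interval -0.45 to 1.05, edgeR adjusted p = 0.633). Its sign was reversed in 5 of 30 alternative settings, none of which passed, over a range of -0.37 to 0.53. It lies on chromosome 3 from 107741048 to 107760469.

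Igf1 encodes insulin-like growth factor 1, a secreted trophic factor. It stood at 0.256, 0.580, 0.215, 0.897 and 1.66 CPM in DKO 1 to DKO 5 and at 0.180, 0.637, 0.237, 1.11 and 1.88 CPM in WT 1 to WT 5. In both genotypes numbers 4 and 5 were above numbers 1 to 3, and libraries of the same number were close. Igf1 averaged 0.721 ± 0.592 CPM in DKO and 0.809 ± 0.706 CPM in WT microglia (SD, n = 5 each; log2 fold change -0.16, 95% interval -1.66 to 1.34, edgeR adjusted p = 0.910), at 5 to 39 counts per DKO and 5 to 50 counts per WT library. The interval is wide and holds 2-fold changes in either direction. The sign was reversed in 7 of 28 alternative settings, none of which passed, with log2 fold changes from -0.72 without DKO 5 to 0.43 without WT 5 and 0.45 with 1 surrogate variable. Igf1 is on chromosome 10 from 87858265 to 87937042.

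Cst7 encodes cystatin F, which holds lysosomal cysteine proteases in check and can be secreted and taken up again. It stood at 24.1, 21.2, 13.3, 13 and 11.3 CPM in DKO 1 to DKO 5 and at 7.06, 11.4, 11.6, 13.5 and 7.04 CPM in WT 1 to WT 5. DKO 1 and DKO 2 were above every WT library, whereas the other DKO libraries lay within the range of the WT libraries. Cst7 averaged 16.6 ± 5.68 CPM in DKO and 10.1 ± 2.92 CPM in WT microglia (SD, n = 5 each), with a log2 fold change of 0.71 (standard error 0.26, 95% interval 0.14 to 1.28), which did not pass after adjustment (edgeR adjusted p = 0.128, unadjusted p = 0.0186). Over 30 alternative settings the log2 fold change was 0.25 to 0.95 and the adjusted p 0.0701 or more. Cst7 lies on chromosome 2 from 150570415 to 150578944 and has 1 transcript, of 986 bases.

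Timp2 encodes a secreted inhibitor of matrix metalloproteinases. It stood at 72.2, 76.4, 53.6, 47.9 and 58.9 CPM in DKO 1 to DKO 5 and at 48.3, 60.8, 61.7, 69.0 and 43.2 CPM in WT 1 to WT 5. These ranges lay over one another. Timp2 averaged 61.8 ± 12.1 CPM in DKO and 56.6 ± 10.5 CPM in WT microglia (SD, n = 5 each; log2 fold change 0.13, 95% interval -0.23 to 0.48, edgeR adjusted p = 0.674), the narrowest interval among the 6 tested markers that were not called. Its sign was reversed in 6 of 30 alternative settings, none of which passed, over a range of -0.23 to 0.24. Timp2 is on chromosome 11 from 118301069 to 118355740.

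Lyz2 encodes lysozyme M, the enzyme of myeloid cells that cuts bacterial cell walls. It was the marker with the most RNA and with the largest SD in CPM, though not the largest SD relative to its mean. It stood at 684, 504, 100.2, 316 and 229 CPM in DKO 1 to DKO 5 and at 58.4, 292, 278, 209.9 and 26.1 CPM in WT 1 to WT 5. DKO 3 was the lowest DKO library and WT 1 and WT 5 the lowest WT libraries, and these are the 3 libraries with more mitochondrial RNA, whose part in the spread was not tested. Lyz2 averaged 367 ± 230.5 CPM in DKO and 173 ± 124 CPM in WT microglia (SD, n = 5 each), with a log2 fold change of 1.08 (standard error 0.64, 95% interval -0.33 to 2.49), which did not pass (edgeR adjusted p = 0.335). Its sign was reversed in 1 of 30 alternative settings, none of which passed, over a range of -0.15 to 1.35. Lyz2 lies on chromosome 10 from 117277331 to 117282321, next to its paralog Lyz1 (117287797 to 117292868), and 34.0% of the runs of 30 bases in its transcript also occur in that of Lyz1. The split of shared reads between them is uncertain in principle, but Lyz1 was assigned 0 to 2 counts in each DKO and each WT library.

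Ch25h encodes cholesterol 25-hydroxylase, an enzyme of the endoplasmic reticulum that makes the secreted oxysterol 25-hydroxycholesterol. It stood at 0.897, 0.535, 0.215, 0.856 and 0.425 CPM in DKO 1 to DKO 5 and at 0.829, 0.0849, 0.198, 0.288 and 0.865 CPM in WT 1 to WT 5. The genotypes overlapped, at 5 to 21 counts per DKO and 2 to 23 counts per WT library. Ch25h averaged 0.586 ± 0.290 CPM in DKO and 0.453 ± 0.367 CPM in WT microglia (SD, n = 5 each; log2 fold change 0.35, 95% interval -0.91 to 1.61, edgeR adjusted p = 0.747). The log2 fold change was larger, but did not pass either, without WT 1 and WT 5 (1.59, edgeR adjusted p = 0.201), without DKO 3 in addition (1.80, 0.11), with 1 surrogate variable (1.68, 0.240) and with voom quality weights (1.21, limma adjusted p = 0.258). Over all alternatives it ran from 0.02 to 1.80. It is on chromosome 19 from 34473778 to 34475164.

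**Figure D4:**
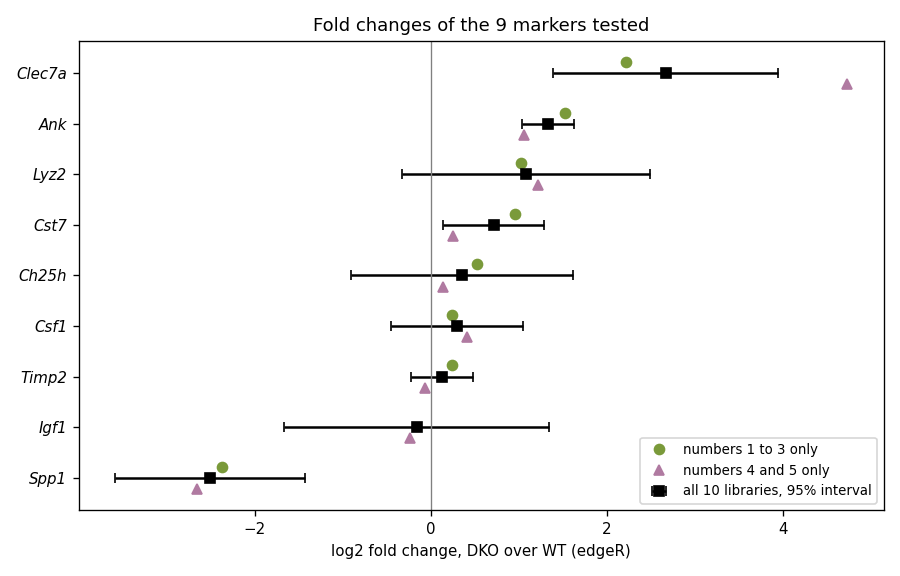
Log2 fold change (DKO over WT, edgeR) of the 9 markers tested. Squares and bars are the estimate and 95% interval over 10 libraries, circles the estimate within numbers 1 to 3 and triangles within numbers 4 and 5 (Igf1 passed the count filter only in the second). The intervals of Clec7a (1.39 to 3.94), Ank (1.04 to 1.63), Cst7 (0.14 to 1.28) and Spp1 (-3.58 to -1.43) leave out 0.

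Across libraries the markers did not follow one order. DKO 1 was the highest DKO library for 7 of the 10 markers and DKO 3 the lowest for 5. Among WT libraries WT 4 was the highest for 4 markers and WT 5 the lowest for 5. WT 1 and WT 5 were the 2 lowest WT libraries for Csf1, Cst7, Timp2 and Lyz2. The lowest WT pair was WT 2 and WT 3 for Spp1 and Ch25h, WT 1 and WT 3 for Ank and Igf1, and WT 4 and WT 5 for Clec7a.

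**Figure D5:**
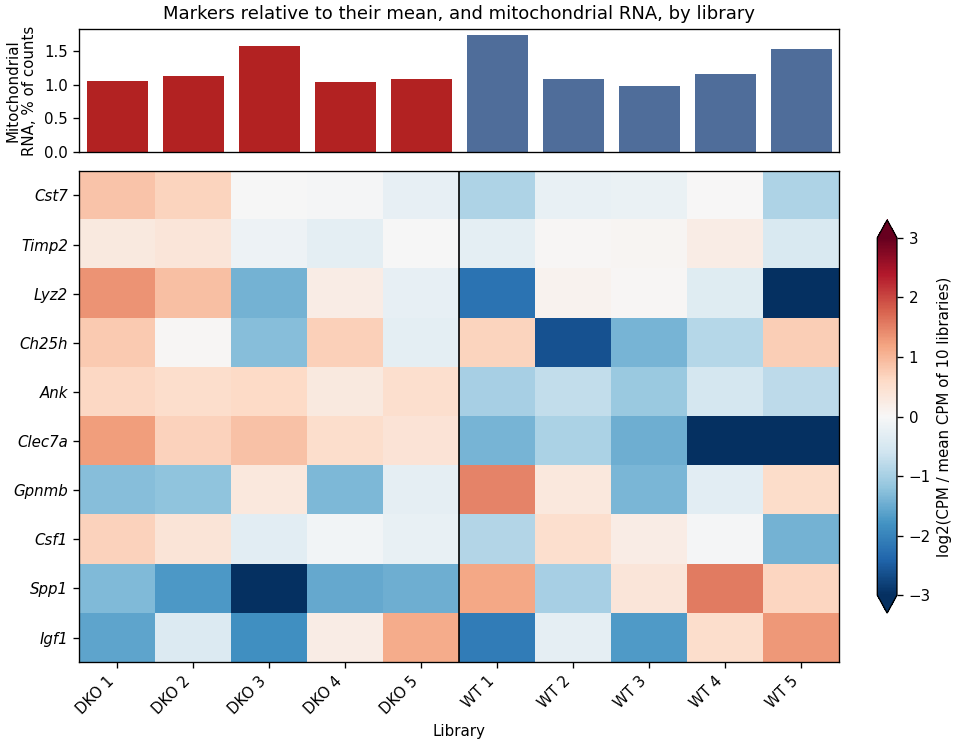
Mitochondrial RNA as a percentage of counts in each library (top, DKO red and WT blue) and CPM of each marker relative to its mean over 10 libraries on a log2 scale (bottom, red above and blue below the mean, values beyond 3 drawn at the end of the scale). Ank is above its mean in all 5 DKO and below it in all 5 WT libraries, as is Clec7a, while Lyz2 is low in DKO 3, WT 1 and WT 5, the libraries with 1.58%, 1.75% and 1.54% mitochondrial RNA.

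Levels can be set beside one another only per length, here as CPM per kilobase of effective length. On this scale the markers ran over a wide range, with Lyz2 first, at 337 ± 212 in DKO and 161 ± 115 in WT microglia. Timp2 followed among WT levels (20.8 ± 4.12 in DKO and 19.1 ± 3.42 in WT), and its WT libraries did not overlap with those of Lyz2. Every other pair of neighbours in the order of WT levels overlapped. That order went on with Cst7 (21.1 ± 7.21 in DKO and 13 ± 3.62 in WT), Clec7a (44.2 ± 11.2 in DKO and 7.21 ± 5.73 in WT) and Csf1 (4.79 ± 1.44 in DKO and 4.42 ± 2.22 in WT). Clec7a was thus the 4th marker by WT level but the 2nd by DKO level. Ank stood at 7.33 ± 0.603 in DKO and 3.14 ± 0.442 in WT, and Spp1 at 0.281 ± 0.123 in DKO and 1.89 ± 0.746 in WT. Igf1, Ch25h and Gpnmb averaged under 1 in both genotypes (SD throughout, n = 5 each). Among the 13916 genes tested, Clec7a was at percentile 83.2 in DKO and 53.5 in WT microglia, Ank at 52.2 in DKO and 39.3 in WT, Spp1 at 8.34 in DKO and 31.2 in WT, and Lyz2 at 97.7 in DKO and 95 in WT.

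The partners of each marker were read from lists of receptors, targets and related genes. Among all genes tested 6.19% were called, and 1 call in a short list speaks of that gene, not of the list. Of the 34 other DAM genes tested (median log2 fold change 0.37), 8 were higher and none lower, against 4.34% and 1.85% of all genes. The DAM genes higher in DKO microglia included Slamf9, a SLAM family receptor (331 ± 16.7 CPM in DKO and 165 ± 22.9 CPM in WT, SD, n = 5 each, log2 fold change 1.01), the tetraspanin gene Cd9 (0.65), Cadm1, a cell adhesion molecule (0.99), and Cox6a2, a subunit of cytochrome c oxidase (2.34). Of 20 homeostatic genes (median -0.11) 1 was called, P2ry12, the ADP receptor of resting microglia, which was lower (7610 ± 974 CPM in DKO and 10766 ± 1335 CPM in WT, SD, n = 5 each, log2 fold change -0.50, edgeR adjusted p = 0.0301).

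For the membrane proteins, 1 of 12 genes of dectin-1 signalling and related lectins (median log2 fold change 0.19) was called, against 6.19% of all genes tested. It was Clec4a3, a C-type lectin receptor (351 ± 20.7 CPM in DKO and 242 ± 31.5 CPM in WT, SD, n = 5 each, log2 fold change 0.53, edgeR adjusted p = 0.00996). Of 7 genes of phosphate and pyrophosphate handling beside Ank (median 0.30), 2 were higher. Enpp1, the ectoenzyme that makes extracellular pyrophosphate from ATP, averaged 19.5 ± 1.07 CPM in DKO and 12.8 ± 1.32 CPM in WT microglia (SD, n = 5 each, log2 fold change 0.60, edgeR adjusted p = 0.00747). Ppa2, a mitochondrial pyrophosphatase, averaged 18.7 ± 4.54 CPM in DKO and 7.77 ± 3.44 CPM in WT microglia (SD, n = 5 each, log2 fold change 1.26, edgeR adjusted p = 0.0217). None of 11 genes of the MiT/TFE factors and their targets (median 0.40), which also regulate Gpnmb, was called by edgeR, while 5 had an unadjusted p under 0.05 and DESeq2 and limma voom called 2 each. Flcn and Sqstm1, the most abundant of these, had log2 fold changes of -0.08 and 0.07.

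For the ligands, 1 of 8 osteopontin receptors (median log2 fold change 0.05) was called, against 6.19% of all genes tested. It was Cd44, also one of the monocyte markers, which was higher (7.02 ± 1.88 CPM in DKO and 1.28 ± 0.828 CPM in WT, SD, n = 5 each, log2 fold change 2.45, edgeR adjusted p = 0.00314). The ligand Spp1 and this receptor thus moved in opposite directions. None of 7 genes of the CSF1 receptor and related cytokine systems (median 0.25) was called by edgeR, while 1 had an unadjusted p under 0.05 and DESeq2 and limma voom called 1 each. Csf1r itself averaged 18153 ± 2097 CPM in DKO and 14792 ± 3467 CPM in WT microglia (SD, n = 5 each, log2 fold change 0.30, edgeR adjusted p = 0.294), and Csf3r, the G-CSF receptor, had a log2 fold change of 0.36. Of 5 genes of IGF receptors and binding proteins (median 0.12), Igfbp6, a binding protein with a preference for IGF2, was higher but scarce (0.930 ± 0.212 CPM in DKO and 0.227 ± 0.126 CPM in WT, SD, n = 5 each, log2 fold change 2.01, edgeR adjusted p = 0.0116).

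For the enzymes and inhibitors, 1 of 11 cystatins and cysteine proteases (median log2 fold change 0.28) was called, against 6.19% of all genes tested. It was Ctsl, cathepsin L, a lysosomal protease and also one of the higher DAM genes counted above (1836 ± 155 CPM in DKO and 1400 ± 125 CPM in WT, SD, n = 5 each, log2 fold change 0.39, edgeR adjusted p = 0.0282). Of 11 metalloproteinases and their inhibitors (median 0.47) Adam9, a membrane sheddase, was higher (89.6 ± 6.71 CPM in DKO and 53.4 ± 3.07 CPM in WT, SD, n = 5 each, log2 fold change 0.75, edgeR adjusted p = 0.000358). None of 8 oxysterol genes (median 0.19) was called by edgeR, DESeq2 or limma voom, with 2 at an unadjusted p under 0.05. Gpr183, the receptor of an oxysterol derived from 25-hydroxycholesterol, had a log2 fold change of 0.29 (edgeR adjusted p = 0.321), and Insig2, which holds sterol regulators in the endoplasmic reticulum, one of -0.29 (edgeR adjusted p = 0.147). The only lysozyme-like gene tested, Lyzl4, did not pass either by edgeR, DESeq2 or limma voom, nor before adjustment (log2 fold change 0.02). Of 20 immediate early and dissociation genes (median 0.02) 1 was called, Btg2, which was lower (log2 fold change -0.54, edgeR adjusted p = 0.0272). None of 6 proliferation genes (median 0.56) was called by edgeR, DESeq2 or limma voom, with 1 at an unadjusted p under 0.05, Cdk1 and Birc5 having log2 fold changes of -0.20 and 0.61.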

How the data were processed

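RNA of sorted microglia was prepared as unstranded TruSeq RNA v2 libraries and sequenced in paired ends. The paper states that RNA integrity of the mouse samples was not measured because RNA was scarce. Per the labels and methods, the authors used FastQC 0.11.8 for read quality, cutadapt 2.6 for adapters and STAR 2.5.3a for alignment to mm10. No source used here names the tool or the annotation that turned reads into gene values. The deposited estimated counts carry no normalization, and the deposited TPM were scaled by the authors' tool to one total per library. The deposited lengths and effective lengths are in bases.

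Estimated counts were rounded, genes were kept by filterByExpr (minimum count 10), given TMM factors and tested by edgeR 4.0.16 in R 4.3.3 (quasi-likelihood, DKO over WT, Benjamini-Hochberg over 13916 genes, threshold 0.05). The biological coefficient of variation was 28.0%. The methods name a mixed model without its terms, so genotype was the only term. Lengths were tested with limma 3.58.1 on a log2 scale, with a variance trend on mean CPM. Single values were compared by two-sided exact permutation tests over the 252 splits of 10 libraries, whose smallest p is 0.00794. Tests were checked on simulated data. Genes are placed by GENCODE M21, which holds 99.9% of the deposited gene IDs and 98.3% with the same version (for Ch25h the version differs).

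The markers and the lists of related genes were chosen with earlier results of these data known. Genes named from a list are up to 4 called members with the smallest p, or the 2 most abundant where none was called, and for cell type markers up to 2 called members. The genes near Clec7a, those that overlap Ank, and single marker genes at or near 0 were named after their values were seen. Alternatives were RLE, upper-quartile and no factors, no filter, CPM of at least 1 in 5 libraries, DESeq2 1.42.0, robust edgeR, limma voom and voom with quality weights, log2 TPM with 1 or 0.1 added and without Gm23935, an effective length offset, a replicate block, the sets of numbers 1 to 3 and 4 and 5 as a term or alone, 1 surrogate variable (sva 3.50.0), and leaving out libraries. Leaving out DKO 3, WT 1 and WT 5 together was chosen after seeing the data.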

Additional observations from a re-analysis of the deposited data

Results flagged for a closer look

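Of 33 sets of 5 libraries of one genotype (level or length of a marker) that were checked for a single library far from the others, 2 had one, and chance alone gives about 1 in 20. In Gpnmb the length in WT 4 was 3701 bases, the highest of the WT libraries, whose others lay at 1923 to 2430 bases. It rests on 2 counts. In Timp2 the length in DKO 1 was 3635 bases, the lowest of the DKO libraries, whose others all had 3709 bases.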

How the results depend on the processing

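Markers called were 3 in the main test and 1 within numbers 4 and 5 (Clec7a), with 1 surrogate variable and without DKO 3, WT 1 and WT 5 (Ank in both). Ank kept its call in 29 of 30 alternatives (log2 fold change 1.05, adjusted p = 0.112 within numbers 4 and 5), Clec7a in 26 of 30 (2.30, 0.0997 with 1 surrogate variable, the other losses being given above) and Spp1 in 23 of 29 (-1.96, 0.0580 with voom quality weights and -2.32, 0.0559 with 1 surrogate variable, the others above). With CPM of at least 1 in 5 libraries Spp1 was not tested. None of the 6 other markers tested passed in any alternative, and no called marker changed sign. Where neither value passed, a result counts as kept whatever its sign, and the sign changes of Csf1, Igf1, Timp2 and Lyz2 given above are of that kind.

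Genes called were 862 in all, and 547 with the replicate block, 1431 with the set term, 298 within numbers 1 to 3, 57 within numbers 4 and 5, 1629 with DESeq2, 4815 with TPM + 1, 4820 with TPM + 0.1, 409 with 1 surrogate variable, 449 without WT 1 and WT 5, 388 without these and DKO 3, and 402 to 1618 with 1 library left out (highest without WT 3, lowest without DKO 1). Of 156 tested genes of the related lists 16 were called, against 30 with the set term, 9 within numbers 1 to 3, 0 within numbers 4 and 5, 33 with DESeq2, 26 with voom quality weights, 51 with TPM + 1, 50 with TPM + 0.1, and 11 to 26 with 1 library left out (26 without WT 3). The main test called 6.19% of all genes tested. Calls of length numbered 3, 0 with the replicate block and 3 to 29 with 1 library left out (29 without WT 3). Higher genes made up 70.1% of calls, 59.8% with the set term, 53.7% with library size alone, 54.6% with upper-quartile factors, 82.5% within numbers 4 and 5, 55.0% with TPM + 1 without Gm23935, 13% with TPM + 1 and 13.2% with TPM + 0.1, and the median over all genes of the log2 fold change shifted to -0.26 with TPM + 1, -0.35 with TPM + 0.1 and -0.11 with upper-quartile factors. Same-numbered libraries had correlations of -0.23 to 0.20 between their deviations, so the numbers were not taken as pairs, and with the replicate block the markers called numbered 3. Gm23935 held 23.2% to 26.6% of TPM in DKO libraries, 20.3% in WT 3 and 2.85% to 6.60% in the other WT libraries. Without it, TPM + 1 called 1077 genes. The causes of these changes in calls, and any part of Gm23935 in them, were not tested. Gpnmb, Spp1, Igf1 and Ch25h rest on few counts, and intervals cover the spread between libraries.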
